A study of Drosophila melanogaster with 53 samples.

Results

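Female *Drosophila melanogaster* that lack miR-252 and foxo and carry 1 mutant copy of daw were set against wild-type females, and every gene with a mean of at least 10 normalised reads over the table was tested. These were 8357 of the 10258 genes listed, measured in 6 of the 53 samples of the series. The tested flies were dawc458 over a normal chromosome and homozygous for mir-252c328 and foxoc431 (daw/+ flies), and the wild type (WT) was line 5905, w1118. Double mutants homozygous for mir-252c328 and foxoc431 with both daw copies intact, foxoc431 mutants and miR-252c328 mutants were sequenced beside them and shared the fit, which held 15 libraries in 5 groups of 3. All were muscle of females aged 3 d in conventional culture, from which polyadenylated RNA was sequenced, and the comparison asks what stays changed when 1 daw copy is mutated. The labels leave out whether a group's libraries were separate animals, and p-values therefore measure the spread between these libraries, which may be technical.

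Dawdle (daw) is an activin-like ligand of the TGF-beta family that signals through the receptor babo and the Smad protein Smox, and in flies it takes part in the control of insulin release, metabolism and autophagy. FoxO is the transcription factor held out of the nucleus by insulin signalling, and its known targets include growth inhibitors, stress genes and some antimicrobial peptide genes. A microRNA binds target transcripts together with Argonaute and lowers their translation or stability. Antimicrobial peptides are small secreted proteins made mostly by the fat body under the Toll and Imd pathways.

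The 15 libraries held 3294056 to 4078819 reads on listed genes. The 3 daw/+ libraries held 3324195 to 3404800 of them and the 3 WT libraries 3514897 to 3617850. Library 2 of the daw/+ flies stood apart from the other two on some transcripts. The median ratio of its 82 cytosolic ribosomal protein transcripts to the WT mean was 1.15, against 0.915 and 0.869 in libraries 1 and 3, and transcripts of giant sarcomere proteins were low in it (bt, 6093 normalised reads against 9996 and 10106 in the other daw/+ libraries). The 10 flight muscle markers were all detected in every group, with a summed level of 100326 to 106124 in daw/+ flies and 98793 to 113760 in WT. The fat body markers summed to 270052 to 302198 normalised reads per library in daw/+ flies and 155529 to 182242 in WT, so RNA of other tissue was present in every library. Most of this sum came from the yolk proteins Yp1, Yp2 and Yp3. Added over the 3 libraries of a group and not normalised, Yp3 alone had 330521 reads in daw/+ flies and 195840 in WT. The markers did not move alike, since 4 of 9 tested were called higher and 2 lower (background 7.69% and 8.17%). The lipophorin apolpp had 42466 reads in daw/+ flies and 53441 in WT, again added over 3 libraries and not normalised. In bulk RNA, fewer cells of a type and less RNA per cell cannot be told apart.

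The targeted genes were not depleted in the count table. daw (2L, 2805261 to 2812376 on dm6, plus strand) had 438, 361 and 468 normalised reads in daw/+ flies, 414, 456 and 422 in double mutants, and 317, 403 and 459 in WT. The groups overlapped, with a log2 difference of 0.11 ± 0.14 (SE) between daw/+ flies and WT (limma adjusted p = 0.669) and of −0.03 ± 0.14 between daw/+ flies and double mutants (adjusted p = 0.931). foxo (3R, 14056945 to 14087978, plus strand) had 619, 586 and 733 normalised reads in daw/+ flies and 596, 534 and 617 in WT, a log2 difference of 0.14 ± 0.12 (adjusted p = 0.456). Gene-level counts of this kind do not check a small deletion or a frameshift. mir-252 (3R, 13464219 to 13464311, minus strand) is not listed in the table.

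The locus around mir-252 did mark the genotype. side-IV, which encodes an immunoglobulin cell surface protein, lies at 3R, 13450590 to 13464184 on the plus strand, and ends next to the mir-252 hairpin. It had 288, 279 and 388 normalised reads in daw/+ flies and 21.1, 20 and 22.9 in WT, a 14.9-fold higher mean (log2 difference 3.83 ± 0.14, adjusted p = 9.12e-13). The other lines that carry mir-252c328 were also high, with 342, 285 and 302 in double mutants and 398, 398 and 423 in miR-252 mutants, while foxo single mutants had 22.1, 21.3 and 17.8. The antisense transcript asRNA:CR17025 (3R, 13455511 to 13466106, minus strand), which contains the hairpin and overlaps side-IV, had 63.3, 47.5 and 59.8 normalised reads in daw/+ flies and 0, 0 and 1.04 in WT. That is 158 against 1 reads, a ratio of 164 with a 95% counting interval of 29.3 to 6570. The use of strand in counting was not stated, and reads of these overlapping genes cannot be told apart.

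**Figure D1:**
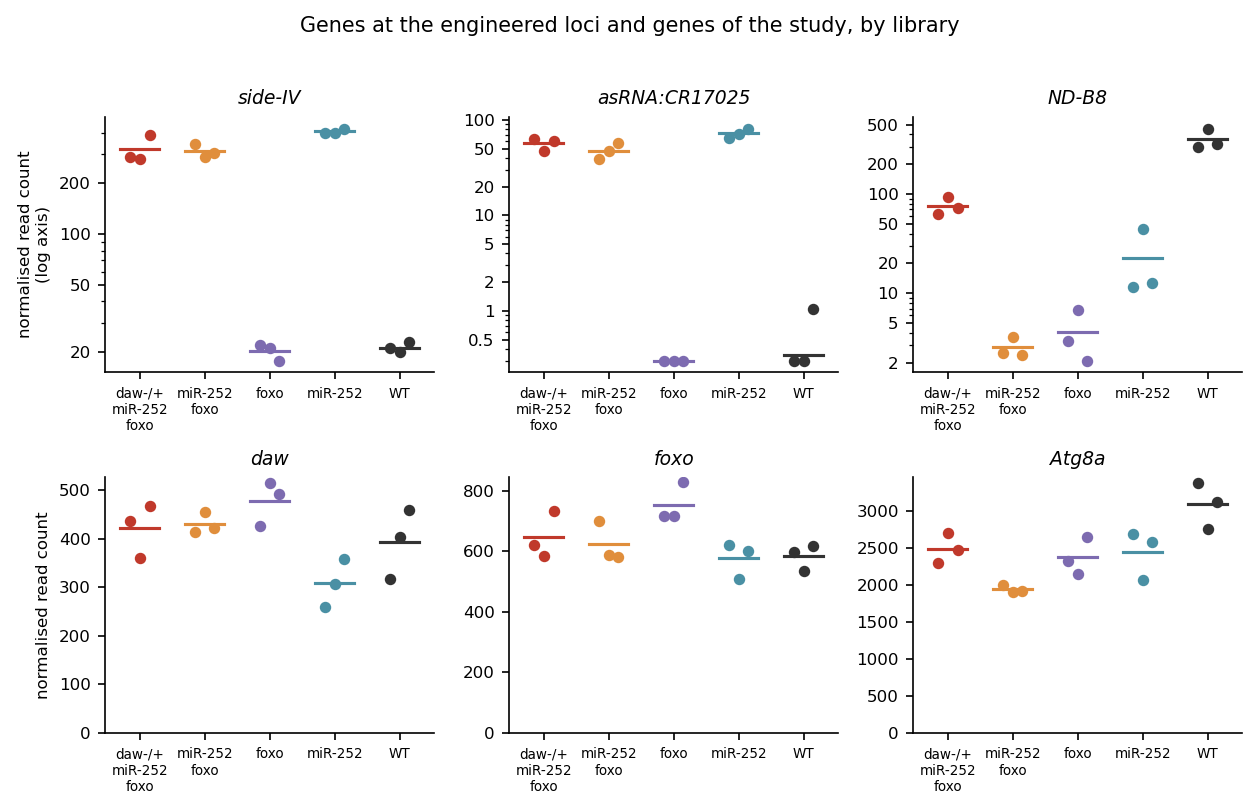
Normalised reads per library (points) and group means (bars) for side-IV, asRNA:CR17025 and ND-B8 on log axes and for daw, foxo and Atg8a on linear axes, in daw-/+ miR-252 foxo (daw/+), miR-252 foxo (double mutant), foxo, miR-252 and WT flies; a value of 0 is drawn at 0.3 on the log axes. side-IV is high in the 3 genotypes that carry mir-252c328 (279 to 423) and low in foxo mutants and WT (17.8 to 22.9), whereas the daw groups overlap.

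Called genes were spread over the genome. Within 1 Mb of foxo or mir-252, 32 of 157 tested genes were called against WT, a share of 20.4% (95% exact binomial interval 14.4 to 27.5%), and within 1 Mb of daw 34 of 155 were, 21.9%. Over all tested genes the share was 15.9%. By chromosome arm it was 16.2% on 2L, 17.1% on 2R, 15.2% on 3L, 16.7% on 3R, 10.8% on the small chromosome 4 and 13.9% on X. smp-30, a regucalcin homologue on 3R, was the other strong rise near the mutated pair, with 237, 148 and 229 normalised reads in daw/+ flies and 77.2, 54.9 and 76.9 in WT (log2 1.53 ± 0.19, adjusted p = 2.01e-05). Near daw, CG3117 had 29.5, 39.9 and 10.7 normalised reads in daw/+ flies and 0, 2 and 0 in WT, or 74 against 2 reads, a ratio of 40.1 (95% counting interval 10.3 to 326).

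Against WT, 1326 genes differed in daw/+ flies at a limma adjusted p under 0.05, which is 15.9% of those tested. Of these, 643 were higher (7.69%) and 683 lower (8.17%). The ranges of the groups were apart for 1267 of the called genes, but calls and ranges come from the same values. Over all tested genes the daw/+ range was above WT in 1183 (14.2%) and below it in 1272 (15.2%). More rises than falls were large: 257 of the higher genes and 99 of the lower ones differed by at least 1 on the log2 scale, while the median over all tested genes was −0.01. The filter on the table mean covered all 5 groups, mostly mutants. A low gene that was high in mutants passed it more readily than one high only in WT. The part of the filter in these counts was not tested. Without WT library 3 the number called was 852. Side by side with the same WT libraries, 2107 genes (25.2%) were called in double mutants, 988 (11.8%) in foxo mutants and 367 (4.39%) in miR-252 mutants. The direct test of daw/+ flies against double mutants, which uses no WT library, called 425 genes (5.09%), 233 higher and 192 lower. That count fell to 228 without double mutant library 2 and to 110 without double mutant library 3, and 113 were called with only these 6 libraries in the fit.

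**Figure D2:**
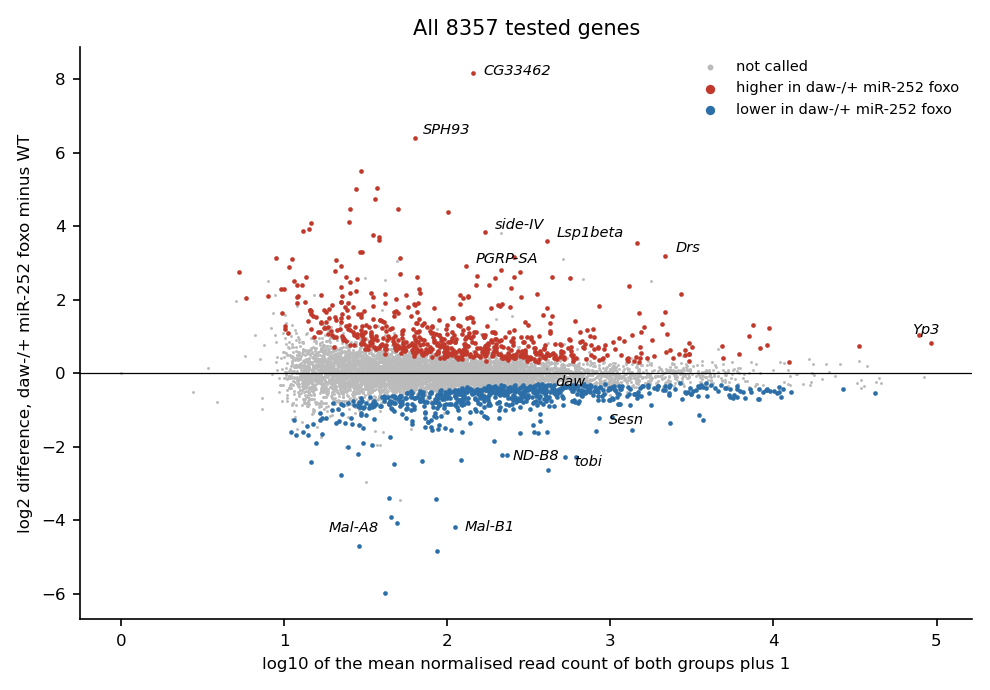
Log2 difference of each of the 8357 tested genes, daw/+ flies minus WT, against the log10 mean of its normalised reads; coloured points are the 643 genes called higher and the 683 called lower. Among genes filtered on the mean over all 5 groups, the 257 rises of at least 1 on the log2 scale outnumber the 99 falls of that size. CG33462 and SPH93 stand at the top.

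The largest rises among genes with a symbol included a protease homologue, a mucin, a neuropeptide and a storage protein. SPH93, a serine protease homologue, had 105, 159 and 108 normalised reads in daw/+ flies and 0, 2 and 0 in WT, a ratio of 186 on 344 against 2 reads (95% counting interval 49.5 to 1490). Its level varied between libraries of other mutants too, with 90.7, 4.84 and 5.24 in foxo mutants. Muc14A, a mucin, had 72.0, 55.0 and 76.9 normalised reads in daw/+ flies, 10.9, 6.44 and 6.42 in double mutants and 3.17, 0.998 and 1.04 in WT. It was higher in daw/+ flies than in both, by 4.73 ± 0.50 against WT (adjusted p = 2.3e-06) and by 2.97 ± 0.50 against double mutants (adjusted p = 0.00288).

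CNMa, a neuropeptide gene, had 52.4, 57.2 and 100.4 normalised reads in daw/+ flies and 2.11, 7.98 and 4.16 in WT (log2 3.70 ± 0.42, adjusted p = 6.97e-06). Peritrophin-15a, a chitin-binding protein, had 66.6, 71.2 and 69.5 in daw/+ flies and 3.17, 5.99 and 5.20 in WT (log2 3.63 ± 0.32, adjusted p = 2.89e-07). In both genes every daw/+ library was above every WT library by a wide margin. The larval storage protein Lsp1beta, a hexamerin, had 575, 509 and 1160 normalised reads in daw/+ flies, 2033, 2821 and 4969 in double mutants, and 46.5, 104 and 37.4 in WT. It rose by 3.60 ± 0.42 against WT (adjusted p = 8.34e-06) and was lower by 2.13 than in double mutants (log2 difference −2.13 ± 0.42, adjusted p = 0.00893), so that the 3 groups did not overlap. That second call was lost without double mutant library 3 (adjusted p = 0.056).

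CG33462, named here after its values were seen, had 264, 269 and 330 normalised reads in daw/+ flies and 0 in every WT library. It was at least 279-fold higher in daw/+ flies, taking a floor of 3 reads over the WT group (limma adjusted p = 2.28e-05). Its level was 120, 130 and 135 in double mutants, and 313, 4.84 and 155 in foxo mutants.

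Large falls among genes with a symbol included an odorant-binding protein and several enzymes. Obp99c, an odorant-binding protein, had 387, 451 and 390 normalised reads in daw/+ flies and 1356, 1073 and 1259 in WT (log2 −1.58 ± 0.12, adjusted p = 2.99e-08). Prat2, the first enzyme of purine synthesis, had 175, 231 and 197 in daw/+ flies and 699, 537 and 598 in WT (log2 −1.60 ± 0.13, adjusted p = 7.6e-08). hgo, which breaks down homogentisate in tyrosine degradation, had 46.9, 36.7 and 36.3 in daw/+ flies and 119, 121 and 116 in WT (log2 −1.56 ± 0.20, adjusted p = 2.28e-05). In each of the 3 genes the WT libraries were all above the daw/+ libraries, and the foxo mutants were also low, with means of 496 for Obp99c, 289 for Prat2 and 47.2 for hgo. Cyp6g1, a cytochrome P450 known for insecticide resistance, had 146, 149 and 216 normalised reads in daw/+ flies and 590, 461 and 486 in WT (log2 −1.60 ± 0.21, adjusted p = 3.48e-05).

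Antimicrobial peptide transcripts remained high in flies with 1 mutant daw copy. Of 31 tested antimicrobial peptide genes, 18 were higher in daw/+ flies than in WT and none lower, against a background of 7.69% called higher. Their median log2 difference was 2.28 in the limma fit, and its size depended on the method. It was 1.88 with a pseudocount of 8 (18 called higher), 1.69 with edgeR (17) and 1.71 with DESeq2 (14). None of the 31 was called between daw/+ flies and double mutants, where the background was 5.09% and the list's median was −0.23 beside −0.02 over all genes. The summed level of the family was 20850, 27356 and 14306 normalised reads in daw/+ flies, 23590, 22192 and 25289 in double mutants, and 8508, 9554 and 4695 in WT. Reads of close copies, such as the cecropin and Bomanin genes, may be split between them.

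Drosomycin (Drs), an antifungal peptide of the Toll pathway, had 3352, 6423 and 1996 normalised reads in daw/+ flies and 418, 689 and 194 in WT (log2 3.19 ± 0.68, adjusted p = 0.00301). BomS1, a short Bomanin of the Toll response, had 2202, 2776 and 1594 in daw/+ flies and 521, 482 and 278 in WT (log2 2.37 ± 0.53, adjusted p = 0.00451). CecB, a cecropin that lyses bacteria, had 63.3, 57.2 and 22.4 in daw/+ flies and 1.06, 2.99 and 0 in WT (log2 4.46 ± 0.66, adjusted p = 0.00011). For all 3 the ranges were apart, with daw/+ library 3 the lowest of its group each time.

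The Drosomycin-like genes Drsl4 and Drsl5 had smaller errors. Drsl4 had 587, 727 and 635 normalised reads in daw/+ flies, 536, 529 and 610 in double mutants, 498, 286 and 408 in foxo mutants, 90.7, 99.5 and 121 in miR-252 mutants, and 236, 244 and 186 in WT. Against WT it rose by 1.55 ± 0.17 on the log2 scale in daw/+ flies (adjusted p = 3.15e-06), and the miR-252 mutants were the only one of the 4 mutant groups below the WT range. Drsl5 rose by 2.08 ± 0.27 (adjusted p = 3.18e-05), with 451, 679 and 265 in daw/+ flies and 113, 122 and 75.9 in WT, and Drsl2 by 2.68 ± 0.40 (adjusted p = 0.000127).

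Not every member passed the test. BomBc3 had 292, 360.2 and 252.2 normalised reads in daw/+ flies and 597, 562 and 362 in WT (log2 −0.73 ± 0.35, adjusted p = 0.176), with every daw/+ library under every WT library. AttC, an attacin of the Imd response, had 997, 1346 and 650 in daw/+ flies and 166, 900 and 27.0 in WT (log2 2.57 ± 1.14, adjusted p = 0.14), and Dro and DptA had the same high WT library 2. The number of the 31 called higher was 11 without daw/+ library 1, 10 without daw/+ library 2 and 10 without WT library 3. Library 2 of the daw/+ flies, which stood apart in its ribosomal protein transcripts, also had the highest summed level of the family.

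**Figure D3:**
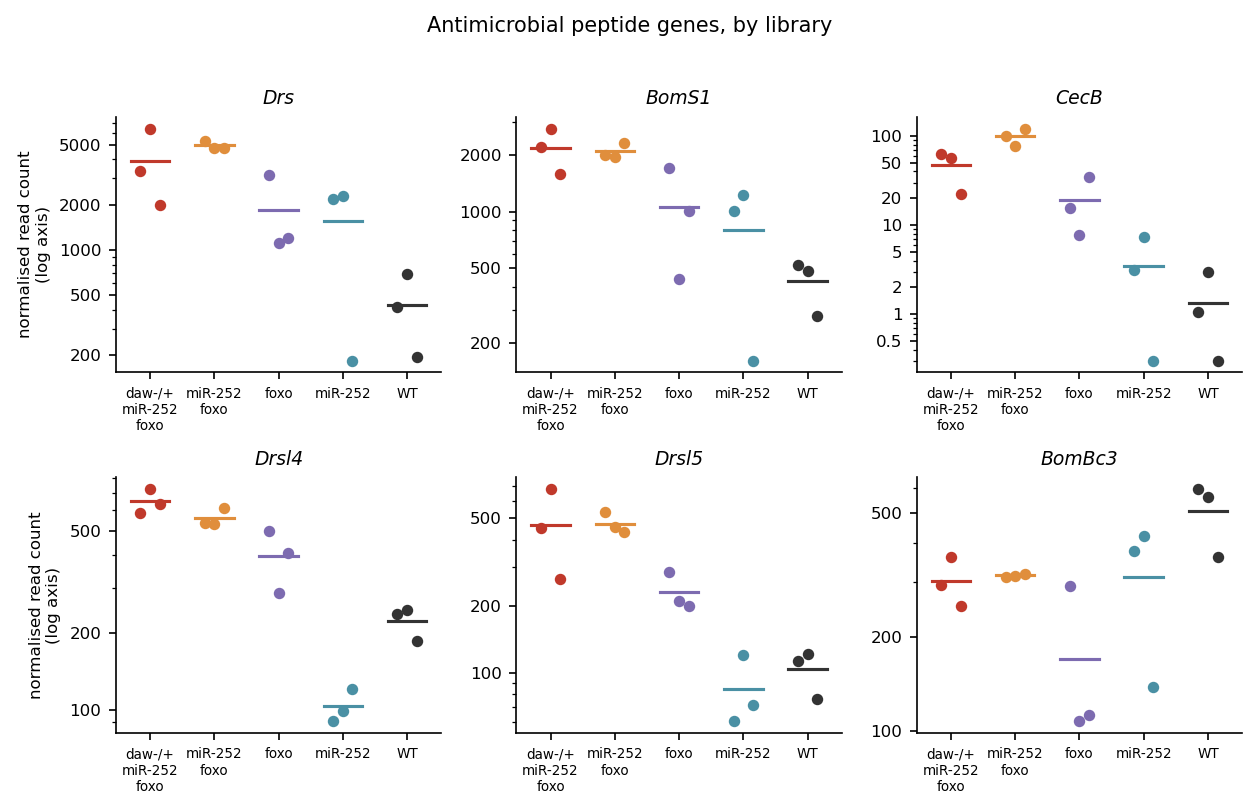
Normalised reads of Drs, BomS1, CecB, Drsl4, Drsl5 and BomBc3 per library (points, log axis, 0 drawn at 0.3) with group means (bars) in daw/+, miR-252 foxo, foxo, miR-252 and WT flies. The daw/+ points lie above WT in every panel except BomBc3, where the daw/+ libraries (252.2 to 360.2) are under WT (362 to 597).

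Some genes upstream of the peptides were called as well. Of 9 peptidoglycan recognition proteins, which bind bacterial cell wall, 3 rose and none fell in daw/+ flies (background 7.69% higher and 8.17% lower). PGRP-SA, a Toll pathway receptor, had 186, 400 and 106 normalised reads in daw/+ flies and 23.3, 40.9 and 17.7 in WT (log2 2.91 ± 0.35, adjusted p = 1.06e-05). PGRP-SC2 (log2 2.63) and PGRP-LB (log2 1.66), amidases that digest peptidoglycan and dampen the Imd response, were the other two.

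Of 25 Imd and Toll signalling genes 7 were higher and 2 lower, with a median log2 difference of 0.21 (background 7.69% higher and 8.17% lower, so the lower members were at about the background share). The NF-kappaB factor Rel had 625, 711 and 544 normalised reads in daw/+ flies, 793, 959 and 1110 in double mutants, and 375, 373 and 325 in WT. It stood between the other two groups, higher than in WT by 0.80 ± 0.15 (adjusted p = 0.000805) and lower than in double mutants (log2 difference −0.60 ± 0.15, adjusted p = 0.0215). The second difference missed the threshold when either daw/+ library 1 or 3 or double mutant library 2 or 3 was left out (adjusted p = 0.051 to 0.14). Inhibitors were among the genes that rose against WT: cact, which holds NF-kappaB in the cytoplasm (0.67 ± 0.11, adjusted p = 0.000441), nec, a serpin that restrains Toll activation (1.03 ± 0.17, adjusted p = 0.000323) and pirk, an inhibitor of Imd (1.92 ± 0.37, adjusted p = 0.00139). The Toll ligand spz rose by 0.85 ± 0.16 (adjusted p = 0.00111). Both falls were in Imd signalling components, the ubiquitin ligase Diap2 (−0.58 ± 0.10, adjusted p = 0.000356) and the adaptor Tab2 (−0.47 ± 0.13, adjusted p = 0.0214).

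Of 10 JAK-STAT and Turandot genes 4 rose, beside 7.69% of all genes. Socs36E, the pathway's feedback inhibitor, had 258, 265 and 113 normalised reads in daw/+ flies and 84.6, 53.9 and 74.8 in WT (log2 1.49 ± 0.25, adjusted p = 0.000376), and its receptor dome rose by 0.74 ± 0.19 (adjusted p = 0.0104; 0.064 without daw/+ library 1). Of 13 JNK and damage genes, 2 were higher against WT (background 7.69%) and 3 lower against double mutants (background 2.3%). Gadd45, a stress-induced gene of the damage response, had 182, 251 and 83.3 in daw/+ flies, 298, 359 and 298 in double mutants, and 65.5, 52.9 and 73.8 in WT, so that all 3 daw/+ libraries lay between the ranges of the other groups. It differed from WT by 1.29 ± 0.25 (adjusted p = 0.00165) and from double mutants by −1.02 ± 0.25 (adjusted p = 0.0248; 0.075 without daw/+ library 3). Mmp1, a matrix metalloproteinase, and egr, the fly's TNF ligand, were the other two below the double mutants, and neither was without double mutant library 3 (adjusted p = 0.16 and 0.056).

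Hemocyte markers, which stand for blood cells, were summed beside these immune genes. Their summed level was 8933 to 10528 normalised reads in daw/+ flies, 12746 to 15746 in double mutants and 7225 to 7899 in WT. Of 12 tested, 3 were higher than in WT, namely the prophenoloxidases PPO1 (0.76) and PPO2 (0.85) and the collagen Col4a1 (0.41; adjusted p 0.05 without daw/+ library 1), and 5 were lower than in double mutants (background 7.69% and 2.3%). The part of blood cell or fat body RNA in the peptide levels was not tested.

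Of the insulin and FoxO list, 9 of 26 tested members were lower and 2 higher in daw/+ flies than in WT, beside 8.17% and 7.69% of all genes. Sesn, a sestrin that restrains TOR and a known FoxO target, had 526, 456 and 542 normalised reads in daw/+ flies, 504, 551 and 584 in double mutants, 558, 564 and 509 in foxo mutants, 1293, 1100 and 1107 in miR-252 mutants, and 1244, 1226 and 1110 in WT. Its fall against WT was −1.23 ± 0.10 on the log2 scale (adjusted p = 1.9e-07), and the 3 genotypes with foxoc431 formed one level and the other two another. Ilp6, the insulin-like peptide made by the fat body, fell to 51.3, 73.3 and 63.0 in daw/+ flies, against 122, 99.8 and 120 in WT (log2 −0.86 ± 0.19, adjusted p = 0.00392). The secreted insulin-binding protein Sdr (−0.76), the TOR inhibitors chrb (−0.55) and scyl (−0.50), the adaptor chico (−0.52), the kinase Lk6 (−0.50) and the TORC1 subunit raptor (−0.81) fell too. The call of chico was lost without daw/+ library 1 or 2 or WT library 3 (adjusted p = 0.056 to 0.11), and that of Sdr without WT library 1 (adjusted p = 0.055). raptor was at 145, 67.9 and 131 in daw/+ flies, and its lowest value was in library 2, where bt was low as well. Thor, the 4E-BP translation inhibitor often read as a FoxO target, had 1636, 2257 and 1199 in daw/+ flies and 1428, 1277 and 1506 in WT (log2 0.23 ± 0.21, adjusted p = 0.525).

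ImpL2, a secreted antagonist that binds insulin-like peptides, was the strongest rise of the list. It had 1215, 1207 and 879 normalised reads in daw/+ flies, 1513, 1905 and 1841 in double mutants, 981, 963 and 889 in foxo mutants, 340, 477 and 374 in miR-252 mutants, and 428, 455 and 535 in WT. daw/+ flies were above WT by 1.21 ± 0.14 (adjusted p = 9.89e-06) and under double mutants (log2 difference −0.68 ± 0.14, adjusted p = 0.0114). The call against double mutants was lost without double mutant library 3 (adjusted p = 0.056).

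tobi, an alpha-glucosidase that insulin and glucagon-like signals control, fell furthest in the list. It had 179, 149 and 168 normalised reads in daw/+ flies, 526, 346 and 346 in double mutants, and 1416, 543 and 691 in WT. Its level was under WT by −2.29 ± 0.33 (adjusted p = 8.44e-05) and under double mutants by −1.27 ± 0.33 (adjusted p = 0.0291), and the second difference missed the threshold without any one of the 6 libraries (adjusted p = 0.055 to 0.098). The related maltases, enzymes that split disaccharides in the gut and fat body, were looked at after their values were seen. Of 8 tested, a count that includes tobi, 6 were lower and none higher than in WT (background 8.17% lower), with a median of −1.74. Against double mutants 1 was higher and 1, tobi itself, lower (background 2.79% and 2.3%). Mal-B1 had 21.8, 8.63 and 4.27 normalised reads in daw/+ flies and 335, 121 and 171 in WT (log2 −4.19 ± 0.44, adjusted p = 2.3e-06). Mal-A6 had 188, 165 and 248 in daw/+ flies, 530, 214 and 382 in foxo mutants, 741, 935 and 805 in miR-252 mutants, and 1543, 782 and 756 in WT (log2 −2.29 ± 0.27, adjusted p = 8.34e-06).

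None of 6 tested TGF-beta ligand genes was called in either comparison (background 15.9% against WT and 5.09% against double mutants). Of 8 receptors and Smads 1 was higher and 1 lower than in WT (background 7.69% and 8.17%) and none was called against double mutants. The lower one, put, the shared type II receptor, fell to 153, 166 and 177 normalised reads in daw/+ flies, against 248, 234 and 244 in WT (log2 −0.55 ± 0.12, adjusted p = 0.0026). The higher one, Mad, the Smad of the BMP branch, had 194, 182 and 198 in daw/+ flies and 152, 150 and 158 in WT (log2 0.32 ± 0.11, adjusted p = 0.0483), a call lost without any one of 5 libraries (adjusted p = 0.086 to 0.11). The receptor babo had 223, 163 and 263 in daw/+ flies and 222, 235 and 239 in WT (log2 −0.13 ± 0.15, adjusted p = 0.63). Actbeta, another activin ligand, had 34.9, 33.4 and 44.9 in daw/+ flies and 62.4, 53.9 and 35.3 in WT (log2 −0.38 ± 0.21, adjusted p = 0.24). Of 12 regulators and targets of the pathway, 1 was higher and 1 lower than in WT, and 2 were lower than in double mutants (background 2.3%). ImpL2, described above, was both the higher one and one of those lower than in double mutants. The protease tok fell by 0.51 (adjusted p = 0.0105; 0.053 without daw/+ library 2 and 0.071 without WT library 3), and the BMP-binding protein sog was lower than in double mutants (log2 difference −0.46 ± 0.10, adjusted p = 0.0143; 0.054 without double mutant library 3).

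None of the 24 autophagy genes was called in either comparison (background 15.9% against WT and 5.09% against double mutants). Atg8a, the ubiquitin-like protein of the autophagosome membrane, had 2294, 2703 and 2473 normalised reads in daw/+ flies, 1998, 1898 and 1921 in double mutants, and 3380, 2759 and 3117 in WT. The daw/+ range lay between the other two without overlap, with a log2 difference of −0.31 ± 0.11 against WT (adjusted p = 0.0748) and of 0.36 ± 0.11 against double mutants (adjusted p = 0.0777), neither past the threshold. AGO1, the Argonaute that carries microRNAs, had 447, 351 and 482 in daw/+ flies and 506, 466 and 575 in WT (adjusted p = 0.119). No call fell on the 12 microRNA pathway genes in either comparison (background 15.9% and 5.09%).

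Transcripts of the respiratory chain were lower in daw/+ flies than in WT and higher than in double mutants. Of 32 complex I genes, which encode the NADH dehydrogenase, 18 were lower than in WT (background 8.17%), with a median of −0.42, and 22 were higher than in double mutants (background 2.79%), with a median of 0.50. Of 36 genes of complexes II to V, 21 were lower than in WT (median −0.41) and 31 higher than in double mutants (median 0.53). The median ratio of the complex I genes to their WT mean was 0.753, 0.86 and 0.709 in the daw/+ libraries, 0.655, 0.577 and 0.449 in the double mutant libraries, and 1.01, 0.956 and 1.04 in the WT libraries. For complexes II to V the same ratio was 0.748, 0.827 and 0.687 in daw/+ flies and 0.608, 0.533 and 0.409 in double mutants. The 3 groups did not overlap on either measure, and double mutant library 3 was the lowest of all. The single mutants were near the daw/+ level, at 0.754 to 0.779 in foxo mutants and 0.701 to 0.81 in miR-252 mutants for complex I, and at 0.727 to 0.751 and 0.625 to 0.745 for complexes II to V.

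These counts leaned on single libraries. Against WT, complex I had 11 lower members without daw/+ library 3, 10 without WT library 1 and 10 without WT library 3, and complexes II to V had 12 without daw/+ library 3 and 9 without WT library 3. Against double mutants, complex I had 13 higher members without daw/+ library 1, 2 without daw/+ library 2, 7 without double mutant library 2 and 1 without double mutant library 3. For complexes II to V they were 20 without daw/+ library 1, 15 without daw/+ library 2 and 6 without double mutant library 3.

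Among single members, ND-24 had 1987, 2313 and 2008 normalised reads in daw/+ flies, 1812, 1658 and 1209 in double mutants, and 3361, 3313 and 3530 in WT (log2 −0.70 ± 0.12 against WT, adjusted p = 0.000471). The small complex III subunit gene ox had 794, 812 and 792 in daw/+ flies and 1616, 1373 and 1328 in WT (log2 −0.84 ± 0.16, adjusted p = 0.0011). Cytochrome c, Cyt-c-p, which carries electrons to complex IV, had 8696, 9071 and 8884 in daw/+ flies, 6071, 5551 and 4524 in double mutants, and 13017, 12043 and 13156 in WT, with 3 separate levels. It differed from WT by −0.52 ± 0.11 (adjusted p = 0.00397) and from double mutants by 0.73 ± 0.11 (adjusted p = 0.00163).

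ND-B8, a complex I subunit gene at 2L, 4454626 to 4455207, was unlike the others. It had 62.2, 92.7 and 71.6 normalised reads in daw/+ flies, 2.52, 3.68 and 2.41 in double mutants, 3.32, 6.77 and 2.09 in foxo mutants, 11.5, 44.2 and 12.6 in miR-252 mutants, and 300.2, 456 and 318 in WT. daw/+ flies were the highest of the 4 mutant groups, under WT by −2.22 ± 0.40 (adjusted p = 0.000753) and over double mutants by 4.30 ± 0.40 (adjusted p = 6.27e-06). The gene lies on the arm that carries daw, where daw/+ flies have 1 dawc458 chromosome, and whether its level follows that chromosome was not tested.

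**Figure D4:**
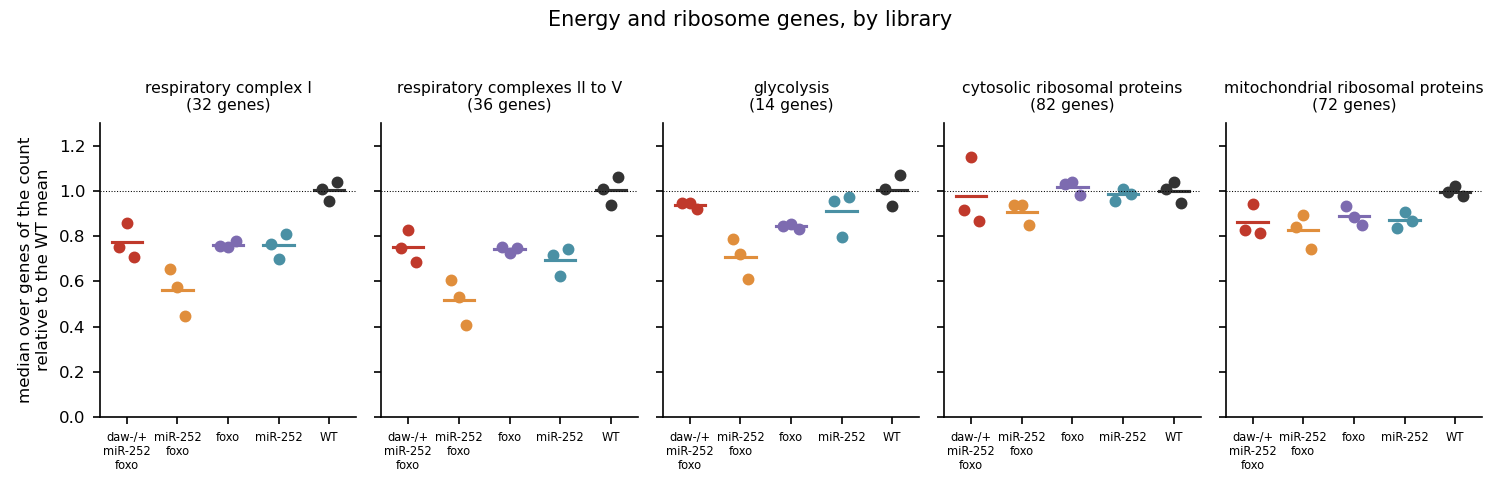
Median ratio to the WT mean over the genes of 5 lists in each library (points), for daw/+, miR-252 foxo, foxo, miR-252 and WT flies. For complex I and complexes II to V the daw/+ libraries (0.687 to 0.86) lie above the double mutants (0.409 to 0.655) and under WT.

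Glycolytic transcripts were near WT. Of 14 glycolysis genes, 1 was higher and 2 lower than in WT (background 7.69% and 8.17%), and 6 were higher than in double mutants (background 2.79%). Their median ratio to the WT mean was 0.947, 0.948 and 0.922 in daw/+ flies and 0.786, 0.72 and 0.612 in double mutants. Gapdh1, the glyceraldehyde phosphate dehydrogenase, had 33640, 33042 and 30110 normalised reads in daw/+ flies, 24437, 21255 and 15220 in double mutants, and 36651, 34537 and 39106 in WT (log2 0.69 ± 0.14 against double mutants, adjusted p = 0.00893). The number higher than in double mutants was 3 without daw/+ library 1 and 1 without double mutant library 3. Lactate dehydrogenase, Ldh, had 206, 245 and 109 in daw/+ flies and 106, 77.8 and 91.4 in WT (log2 0.95 ± 0.24, adjusted p = 0.0116), a call lost without daw/+ library 1 or 2 (adjusted p = 0.052 and 0.08). Pepck2, a phosphoenolpyruvate carboxykinase of gluconeogenesis, had 432, 505 and 465 in daw/+ flies, 159, 141 and 79.5 in double mutants, 163, 170.3 and 209 in foxo mutants, and 620.4, 427 and 558 in WT. It was higher than in double mutants by 1.93 ± 0.21 (adjusted p = 4.2e-05) and overlapped WT.

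Of 72 mitochondrial ribosomal protein genes 12 were lower and 1 higher than in WT, with a median of −0.19, beside 8.17% of all genes lower and 7.69% higher. Of 82 cytosolic ribosomal protein genes 2 were lower and none higher, both under those background shares. Among 34 sarcomere genes 7 were higher and 2 lower, the lower ones also under the background share of 8.17%. The flight muscle actin Act88F had 5671, 6240.1 and 5965 normalised reads in daw/+ flies and 2451, 3977 and 4597 in WT (log2 0.75 ± 0.17, adjusted p = 0.00423). TpnC41C, a troponin C, had 1355, 1716 and 1609 in daw/+ flies and 960, 830 and 784 in WT (log2 0.86 ± 0.12, adjusted p = 5.14e-05). Zasp66, a Z-disc protein, fell to 6490, 5834 and 6153 in daw/+ flies, against 10034, 9579 and 10820 in WT (log2 −0.72 ± 0.10, adjusted p = 5.14e-05).

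Several heat shock genes overlapped WT in daw/+ flies and were under the double mutants. Of 15 heat shock and chaperone genes, 1 was higher and 3 lower than in WT (background 7.69% higher and 8.17% lower). Against double mutants 8 were lower and 1 higher (background 2.3% lower and 2.79% higher). Hsp27, a small heat shock protein, had 16.4, 14.0 and 9.62 normalised reads in daw/+ flies, 92.3, 182 and 118 in double mutants, and 15.9, 18.0 and 4.16 in WT (log2 −3.17 ± 0.43 against double mutants, adjusted p = 0.000444). Hsp26 had 74.2, 94.9 and 29.9 in daw/+ flies, 321, 530.5 and 382 in double mutants, and 61.3, 83.8 and 26.0 in WT (log2 −2.73 ± 0.46, adjusted p = 0.00288). Hsp68, an inducible Hsp70 relative, was lower than in double mutants by 2.30 (log2 difference −2.30 ± 0.41, adjusted p = 0.00471). The 3 daw/+ libraries overlapped WT in these 3 genes, and without double mutant library 2 the number lower was 5.

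l(2)efl, another small heat shock gene, showed a different order. It had 236, 284 and 225 normalised reads in daw/+ flies, 265, 245 and 228 in double mutants, 284, 241 and 212 in foxo mutants, 557, 540 and 495 in miR-252 mutants, and 537, 448 and 391.8 in WT. It fell by 0.88 on the log2 scale against WT (difference −0.88 ± 0.13, adjusted p = 0.000153) and did not differ from double mutants beyond its error (0.01 ± 0.13, adjusted p = 0.98).

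The direct comparison with double mutants named further genes. Arc1, a capsid-like gene known from neurons and metabolism, had 1671, 4466 and 2882 normalised reads in daw/+ flies, 9788, 12039 and 17488 in double mutants, and 954, 1675 and 821 in WT (log2 −2.19 ± 0.28 against double mutants, adjusted p = 0.000205). whe had 5457, 7132 and 5767 in daw/+ flies, 2560, 2517 and 2745 in double mutants, and 11099, 8289.7 and 10424 in WT. It was higher than in double mutants by 1.22 ± 0.14 (adjusted p = 7.42e-05) and lower than in WT by 0.70 (log2 difference −0.70 ± 0.14, adjusted p = 0.00216). ninaE, the rhodopsin of the main photoreceptors, was higher than in double mutants, but its 224, 29.1 and 86.6 normalised reads in daw/+ flies and 23.3, 135 and 13.5 in WT varied within groups (adjusted p = 0.0417 against double mutants, and 0.10 to 0.18 without any one of 4 libraries).

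The authors' deposited table of the same comparison gave adjusted p-values for 9727 genes, of which 868 were under 0.05 (8.92%), with 472 higher (4.85%) and 396 lower (4.07%). There, in the authors' deposited table, 17 of the 31 antimicrobial peptide genes were higher and 1 lower, with a median log2 fold change of 0.82, and the lower one was BomBc3. Fold changes in the authors' deposited tables are another measure than the limma log2 differences, whose median for these genes was 2.28. Their sizes are not to be compared. Of the respiratory genes, that deposited table by the authors had 17 complex I members and 25 members of complexes II to V lower and none higher.

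For libraries that share no WT with these, only the authors' deposited comparisons were read here, and no values per library were refitted. They cover foxo mutants against WT raised on antibiotic media (axenic) and daw 3' UTR foxo double mutants against their own WT. Of the 634 genes higher in daw/+ flies and present in the axenic table, 133 (21%) were higher there too, beside 3.18% of all genes shared by the tables. These were 50.8% of the 262 genes higher in axenic foxo mutants, beside 7.7% of all shared genes that were higher in daw/+ flies. Of the 675 lower genes 159 (23.6%, background 3.51%) were lower there, or 55% of 289 (background 8.2%). In the authors' deposited table of daw 3' UTR foxo flies 304 of 635 higher genes (47.9%, background 10.1%) were higher, or 36.4% of 836 (background 7.71%). Of the 675 lower genes 302 (44.7%, background 11.4%) were lower there, or 32.1% of 940 (background 8.19%).

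The peptide genes were counted in both tables. In the authors' deposited table of daw 3' UTR foxo flies 24 of the antimicrobial peptide genes were higher and none lower, with a median of 1.57 (background 19.1% called, 9.27% higher and 9.82% lower). In the authors' deposited axenic table, where 6.25% of all genes were called, 2 were higher and 2 lower, with a median of 0.07 (background 3.01% higher and 3.24% lower). The 2 higher ones were Drsl4, with a log2 fold change of 1.17 (adjusted p = 1.13e-07), and Drsl5, with 1.68 (adjusted p = 3.38e-10), both also called in daw/+ flies, and the lower ones were BomBc2 (−0.90) and BomBc3 (−1.75). The difference between daw/+ flies and axenic foxo mutants was not tested, since they differ in genotype, culture and table.

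Of the fat body markers, 4 of 9 tested were higher and 2 lower in daw/+ flies than in WT, beside 7.69% and 8.17% of all genes, the background for each marker list. The yolk proteins Yp1 (0.73), Yp2 (1.03) and Yp3 (0.82) rose with Lsp1beta, and Yp2 alone had 101963, 103879 and 110249 normalised reads in daw/+ flies, against 56529, 50089.6 and 48463 in WT. Lsp1gamma fell to 54.6, 53.9 and 55.6 in daw/+ flies, against 112, 111 and 157 in WT (log2 −1.18 ± 0.19, adjusted p = 0.000254), and the lipophorin apolpp was not called. Of 15 gut markers 7 rose and 5 fell. The serine proteases yip7 (1.22) and Jon65Aiv (0.76) were among the rises and the amylases Amy-d (−1.27) and Amy-p (−0.67) among the falls. Neuron markers fell in 4 of 13 and rose in none, and none of the eye and ovary markers tested (5 and 3) was called against WT. Of the 2 genes tested in the male dosage compensation list, 1 was higher than in WT and none lower. Added over libraries and not normalised, roX1 had 62 reads in daw/+ flies, 94 in double mutants and 9 in WT. msl-2 had 132, 142 and 131 in the same order, and the source of the roX1 reads was not tested. The part of other tissue in the results on peptides, maltases and storage proteins was not tested.

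**Figure D5:**
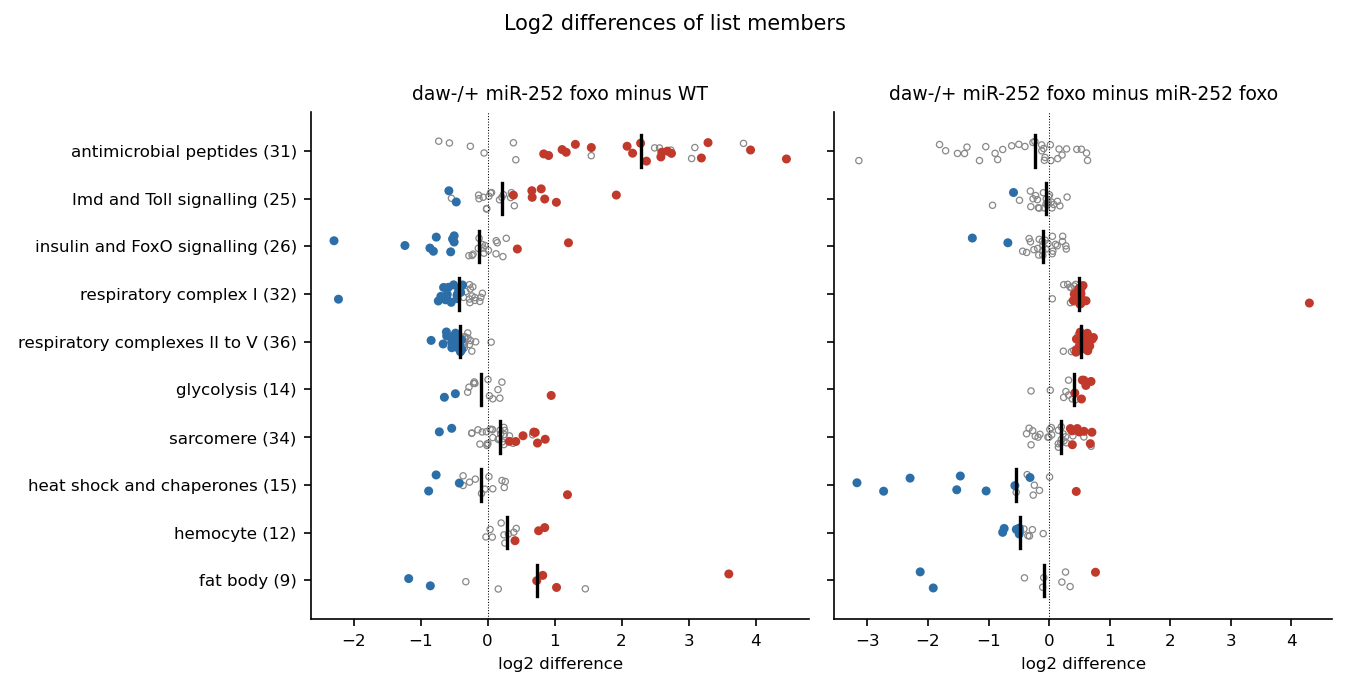
Log2 difference of each tested gene (points, filled where called) in 10 gene lists, for daw/+ flies minus WT and daw/+ flies minus double mutants; the black line is each list's median. The antimicrobial peptides have a median of 2.28 against WT and −0.23 against double mutants, and the respiratory lists lie under 0 against WT (−0.42 and −0.41) and above 0 against double mutants (0.50 and 0.53).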

How the data were processed

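Per the submitters' processing notes, STAR, HTSeq and DESeq were used with dm6; versions, and any use of strand, are not given in the sources read here. Gene positions are from the Ensembl annotation of the same assembly. The deposited signal is a read count per gene divided by a size factor per library, which the authors made with DESeq; dividing by the value of 1 read gave whole reads for 100% of values, within 0.01. The authors' deposited tables also give log2 fold changes, p-values and a score per gene (a mean or test statistic). Genes with a table mean of at least 10 were tested with limma (version 3.58.1, R 4.3.3) on log2 of the value plus a pseudocount of 1, all 15 libraries in 1 fit, and called at a Benjamini-Hochberg adjusted p under 0.05. Exact permutation of 3 against 3 libraries cannot go below p = 0.1 and was not used. Folds against 0 use a floor of 3 reads over the group; intervals cover counting error only. The WT columns are not linked to single samples and were used as 3 libraries of WT.

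Named genes were the study's own, the 12 largest rises and falls, up to 4 per list with at least 3 called, the 8 largest direct rises and falls, up to 4 near each locus and the 6 smallest p-values, with exceptions stated. Of 36 gene lists, 25 are pathways and 10 tissue or sex markers. Members, lists and tests were chosen with earlier results of these data known. Alternatives were a pseudocount of 8, no filter, upper-quartile scaling, edgeR (4.0.16) and DESeq2 (1.42.0) on whole reads, only the groups compared, a replicate block and leaving out each library. The code was tested on simulated data.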

Additional observations from a re-analysis of the deposited data

How the results depend on the processing

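Against WT, 1381 genes were called with a pseudocount of 8, 1387 with no filter, 1305 with upper-quartile scaling, 1257 with edgeR, 1176 with DESeq2 and 916 with only the 6 libraries compared, beside 1326. Leaving out 1 library gave 852 to 1351. Antimicrobial peptide genes called higher then ranged over 10 to 19, lower complex I genes over 10 to 19, lower genes of complexes II to V over 9 to 24 and lower insulin genes over 8 to 9. Against double mutants the count was 441, 408, 473, 466, 521 and 113 in the same order, beside 425, and 110 to 479 without 1 library. In the fit of only those 6 libraries 1 complex I gene and 2 genes of complexes II to V were higher, 0 of glycolysis, and 5 heat shock genes lower; the fit has fewer libraries to estimate the spread. Without 1 library the same 4 counts ranged over 1 to 30, 6 to 35, 1 to 8 and 5 to 8. Upper-quartile scaling called 320 higher of 473, beside 233 of 425.

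Same-numbered daw/+ and WT libraries deviated together with correlations of −0.080, 0.125 and 0.181. Crossing WT library 2 with daw/+ library 3 gave −0.183, and WT library 3 with daw/+ library 2 gave −0.182. Whether the numbers pair the libraries is not settled by these values. With the number as a replicate block 1512 and 511 genes were called. Of 136 named genes called against WT, 32 lost the call in at least 1 fit without a library and 21 under another setting; of 66 against double mutants 44 did in each case, and 0 changed sign. The windows of 0.5 and 2 Mb left the shares near the loci on the same side of the background. Seed sites of miR-252 were not run. With 3 libraries a group, small differences of low genes were not detectable.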

Other observations

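Cytochrome P450 genes, which oxidise hormones and foreign compounds, moved both ways. Of 53 tested, 10 were higher and 8 lower in daw/+ flies than in WT (background 7.69% and 8.17%), with a median of 0.09. Cyp305a1 had 120.0, 126 and 123 normalised reads in daw/+ flies and 319, 264 and 284 in WT (log2 −1.22 ± 0.12, limma adjusted p = 7.61e-07). Cyp4p2 rose to 223, 265 and 159 in daw/+ flies, against 49.7, 42.9 and 57.2 in WT (log2 2.07 ± 0.32, adjusted p = 0.000162). The groups were apart in both genes.

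Of 18 metallothionein and antioxidant enzyme genes, 3 were higher and 2 lower than in WT (background 7.69% and 8.17%), with a median of −0.02, and the higher ones were metallothioneins, which bind copper and zinc. MtnA had 1637, 3725 and 1610.3 normalised reads in daw/+ flies, 2366, 2690.1 and 2149 in double mutants, and 708, 739 and 609 in WT (log2 1.65 ± 0.21, adjusted p = 2.59e-05). MtnD rose by 2.78 ± 0.60 (adjusted p = 0.00344), while MtnC had 6.55, 16.2 and 16.0 in daw/+ flies and 51.8, 38.9 and 11.4 in WT (adjusted p = 0.088). Of 23 cuticle and trachea genes 7 were higher (background 7.69%) and none lower. Cpr47Ea, a chitin-binding cuticle protein, had 91.7, 84.1 and 98.3 in daw/+ flies, 39.4, 36.8 and 54.6 in double mutants, and 10.6, 7.98 and 10.4 in WT, 3 separate levels (log2 3.12 ± 0.24 against WT, adjusted p = 7.6e-08). The odorant-binding protein gene Obp57a had 261, 259 and 261 in daw/+ flies, 104, 110.3 and 126 in foxo mutants, and 53.9, 30.9 and 40.5 in WT (log2 2.64 ± 0.17, adjusted p = 5.18e-09). None of 10 circadian clock genes and none of 31 proteasome subunit genes was called against WT or against double mutants (background 15.9% and 5.09%).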
